A study of Mus musculus with 10 samples.

Results

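TRBV12-1 and TRBV12-2, the mouse gene segments that encode the Vbeta5 family of T cell receptor (TCR) beta chains, were described in regulatory T (Treg) cells with and without CNS4. An entry was taken as a TRBV12 receptor when its V name was TRBV12-1 or TRBV12-2 and its CDR3 amino acids ended as 1 of 10 beta chain J ends. This gave 18360 clonotypes out of 192998 beta chain (TRB) clonotypes in 10 libraries (9.51%), of which 11617 carried TRBV12-1 and 6743 carried TRBV12-2. A clonotype is a distinct combination of V gene, J gene and CDR3 nucleotides within a library. TRBV12-1 (synonym Tcrb-V5.2) lies on chromosome 6 from 41113567 to 41114067, and TRBV12-2 (Tcrb-V5.1) lies from 41118864 to 41119364, by RefSeq coordinates on GRCm38 (mm10). The genes were chosen with their higher share in CNS4KO libraries already known, so that share is given below as a description without a test.

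The libraries were made from total RNA of untreated splenic Treg cells, which suppress immune responses and are defined by the transcription factor Foxp3. The 5 CNS4KO libraries, labelled KO, came from mice deficient in CNS4, a distal enhancer of Foxp3. The 5 CNS4Flox libraries came from mice that carry the floxed enhancer. The series gives TCR repertoire diversity as the question of the sequencing. Age, sex, strain background and the driver of any Cre are not part of the labels, and the labels do not say whether the samples of a group were separate mice, so that p-values measure the spread between these samples, which may be technical. Foxp3 expression and the deletion itself could not be checked in receptor tables. The replicate numbers only name the samples of a group.

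A TCR beta chain is assembled in the thymus by joining a V, a D and a J segment, and the join forms the CDR3, the loop that contacts the peptide. Nucleases trim the segment ends and terminal deoxynucleotidyl transferase inserts bases that no segment encodes, so the centre of the CDR3 differs between clones. In mouse strains that express the class II molecule I-E, Vbeta5 T cells are among those deleted by superantigens of endogenous retroviruses. TRBD1 lies upstream of the TRBJ1 cluster, whereas TRBD2 lies between the TRBJ1 and TRBJ2 clusters, so that TRBD2 normally joins to TRBJ2 genes.

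The CDR3 nucleotides of the TRBV12-1 clonotypes that were shared most widely, that were found under the TRBV12-1 name in CNS4KO libraries alone, or that were most abundant in a library are shown as deposited, from the cysteine codon to the last J residue. Capitals mark bases that lie between a V, D or J match and the next match, here called inserted bases. Where an amino acid CDR3 had several nucleotide forms, the form found in the most libraries is shown. The first 5 were shared between groups and hold 0 to 3 inserted bases, the next 3 were found as TRBV12-1 clonotypes in CNS4KO libraries alone, and the last 2 were the most abundant of each group.
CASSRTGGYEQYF: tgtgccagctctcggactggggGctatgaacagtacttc
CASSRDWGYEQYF: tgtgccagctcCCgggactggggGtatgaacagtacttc
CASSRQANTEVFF: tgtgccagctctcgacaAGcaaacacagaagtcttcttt
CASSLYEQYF: tgtgccagctccctctatgaacagtacttc
15-residue shared clonotype: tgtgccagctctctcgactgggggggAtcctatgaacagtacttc
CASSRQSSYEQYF: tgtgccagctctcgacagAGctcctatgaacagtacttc
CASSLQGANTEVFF: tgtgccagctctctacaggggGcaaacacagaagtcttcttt
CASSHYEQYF: tgtgccagctctcActatgaacagtacttc
16-residue clonotype of CNS4KO replicate 3: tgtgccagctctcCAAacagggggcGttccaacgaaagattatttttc
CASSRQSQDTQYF: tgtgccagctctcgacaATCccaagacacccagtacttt

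The CDR3 starts of TRBV12 clonotypes are given as a description. They cannot check the V label, because starts of the other TRBV genes were not compared. In 99.1% of TRBV12 clonotypes the CDR3 began with tgtgccagc, and in 74.0% it began with tgtgccagctct, which encodes CASS. The commonest 15-base start, tgtgccagctctctc, which encodes CASSL, was held by 28.7% of TRBV12-1 and 33.2% of TRBV12-2 clonotypes. Both genes had the same commonest start, and 377 CDR3 nucleotide sequences occurred under both names. Germline V sequences were not used here, so values given for each gene rest on the deposited V names.

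The libraries held 19199 to 34833 TRB counts, of which 1647 to 3173 belonged to TRBV12. There were 1469 to 2322 TRBV12 clonotypes in the CNS4KO libraries and 1394 to 2205 in the CNS4Flox libraries. CNS4KO replicate 5 and CNS4Flox replicate 3 shared 62 TRBV12 nucleotide clonotypes, which were 2.67% of the clonotypes of the CNS4KO library and 2.95% of those of the CNS4Flox library. The other 44 pairs of libraries shared 5 to 41. In the other TRBV genes CNS4KO replicate 5 and CNS4Flox replicate 3 shared 760 nucleotide clonotypes, and the other 44 pairs 86 to 227. Without both of these libraries none of the 15 values compared between groups passed an adjusted p of 0.05, in a design of 4 against 4 whose smallest exact permutation p is 0.0286, and those that had passed kept their direction.

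TRBV12 receptors took a larger part of the TRB repertoire in CNS4KO libraries. TRBV12-1 held 7.35, 7.15, 6.58, 7.13 and 6.36% of distinct TRB clonotypes in CNS4KO replicates 1 to 5, against 5.25, 5.51, 5.40, 5.49 and 4.54% in CNS4Flox replicates 1 to 5. Every CNS4KO library was above every CNS4Flox library, with means of 6.91% ± 0.422 and 5.24% ± 0.401 (SD, n = 5 each). TRBV12-2 held 3.81, 3.50, 4.19, 3.86 and 3.71% in CNS4KO replicates 1 to 5, against 2.63, 3.49, 3.19, 3.33 and 3.33% in CNS4Flox replicates 1 to 5. The groups did not overlap, but CNS4KO replicate 2 and CNS4Flox replicate 2 lay next to each other. Of 22 TRBV genes, 9.09% had groups that did not overlap with CNS4KO higher, and these were TRBV12-1 and TRBV12-2. The ratio of the CNS4KO mean to the CNS4Flox mean was 1.32 for TRBV12-1 and 1.20 for TRBV12-2, which were the highest and the next highest among the 22 genes. Measured over counts, the ratios were 1.28 and 1.15, and the TRBV12-2 groups overlapped. The 95% Wilson interval of a single library's share of counts was at most 0.353 percentage points to either side, and it covers counting error only. In total RNA, more cells with a receptor and more receptor RNA per cell cannot be told apart.

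**Figure D1:**
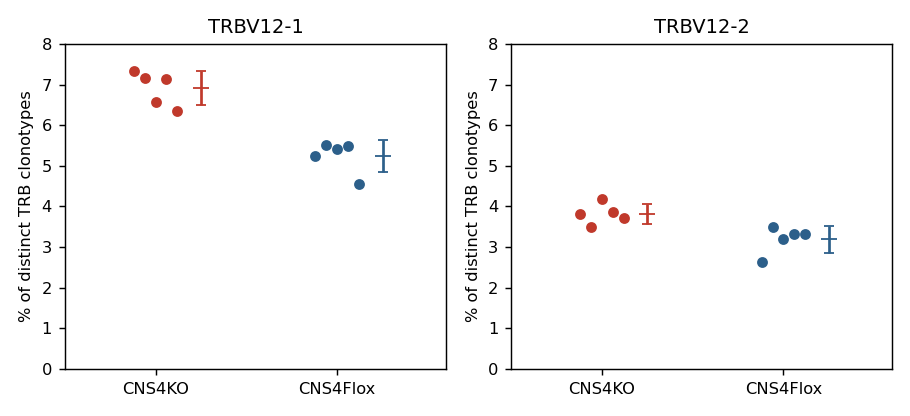
Share of distinct TRB clonotypes (%) that carried TRBV12-1 (left) and TRBV12-2 (right) in 5 CNS4KO and 5 CNS4Flox libraries. Points are libraries and bars are the mean ± SD; TRBV12-1 lay between 6.36 and 7.35% in CNS4KO and between 4.54 and 5.51% in CNS4Flox.

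The TRBJ1 genes were joined to TRBV12 more often in CNS4KO libraries, and TRBJ1-1 was the TRBJ1 gene whose groups did not overlap. TRBJ1 genes were used by 37.6, 35.7, 40.4, 37.8 and 35.96% of TRBV12 clonotypes in CNS4KO replicates 1 to 5, against 34.7, 32.7, 34.8, 36.7 and 34.0% in CNS4Flox replicates 1 to 5. The means were 37.5% ± 1.88 and 34.6% ± 1.43 (SD, n = 5 each), and CNS4Flox replicate 4 was above CNS4KO replicates 2 and 5. The TRBJ1 share rose by 2.89 percentage points (exact permutation p = 0.0238, adjusted p = 0.0446 with Benjamini-Hochberg over 15 values). The same direction with an exact p under 0.05 was seen in 9.09% of 22 TRBV genes tested singly. The adjusted p was 0.0476 without CNS4Flox replicate 4 and between 0.0680 and 0.0893 without each other library, where the smallest exact p that 5 against 4 samples allow is 0.0159. Without both libraries of the pair that shared clonotypes, the difference was 3.33 percentage points.

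TRBJ1-1 was found in 12.7, 11.9, 15.1, 13.7 and 12.2% of TRBV12 clonotypes in CNS4KO replicates 1 to 5, against 11.01, 11.02, 11.1, 11.4 and 9.40% in CNS4Flox replicates 1 to 5. The groups did not overlap, with means of 13.1% ± 1.31 and 10.8% ± 0.786 (SD, n = 5 each). By gene, TRBV12-1 libraries lay at 12.4 to 16.8% in CNS4KO and 10.9 to 12.1% in CNS4Flox, without overlap. TRBV12-2 libraries lay at 8.53 to 12.5% in CNS4KO and 7.13 to 11.2% in CNS4Flox, with overlap. Weighted by count, the groups of both genes together overlapped too, at 11.5 to 14.6% and 9.53 to 11.6%. In clonotypes of the other 20 TRBV genes, TRBJ1-1 was found in 8.91% ± 0.374 and 9.08% ± 0.611 (SD, n = 5 each), with overlapping groups. The difference between TRBV12 and the other genes in TRBJ1-1 share was therefore compared between groups, and it was 4.22 percentage points in CNS4KO and 1.70 in CNS4Flox libraries. The change of 2.52 percentage points passed the test (exact permutation p = 0.00794, adjusted p = 0.0417 over 21 values). It was higher in each of the 5 CNS4KO libraries than in any CNS4Flox library.

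The same comparison passed for the TRBJ1 cluster as a whole, where TRBV12 exceeded the other genes by 6.25 percentage points in CNS4KO and by 3.58 in CNS4Flox libraries (exact permutation p = 0.00794, adjusted p = 0.0417). It also passed for TRBJ2-3, in the other direction. TRBJ2-3 was found in 7.71, 8.58, 6.27, 6.20 and 8.23% of TRBV12 clonotypes in CNS4KO replicates 1 to 5, against 9.78, 8.53, 7.94, 8.76 and 8.90% in CNS4Flox replicates 1 to 5. TRBV12 was 0.743 percentage points below the other genes in CNS4KO and 0.698 above them in CNS4Flox libraries, a change of -1.44 points (exact permutation p = 0.00794, adjusted p = 0.0417). Over all 22 V genes and 21 values, 5.84% of such comparisons had an exact p under 0.05. With any library left out, the TRBJ1-1, TRBJ1 cluster and TRBJ2-3 changes kept their sign, while their adjusted p was 0.0667 or 0.0833. Weighted by count, the TRBJ1-1 change was 1.97 points (exact permutation p = 0.135).

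Counts of single V-J pairs, divided by the count of their V gene, gave no call. In edgeR's quasi-likelihood test 0% of 253 V-J pairs passed an adjusted p of 0.05, and 3.95% had an unadjusted p under 0.05. Of the 24 TRBV12 pairs, 0 passed and 2 had an unadjusted p under 0.05 in edgeR as well as in DESeq2, with 12 pairs higher and 12 lower in CNS4KO. TRBV12-1 with TRBJ1-1 had the smallest p, with 13.96% ± 1.71 of TRBV12-1 counts in CNS4KO and 11.4% ± 0.655 in CNS4Flox libraries (SD, n = 5 each; log2 fold change 0.30, SE 0.10, edgeR adjusted p = 0.531). When distinct clonotypes were tested in place of counts, this pair passed with a log2 fold change of 0.32 (edgeR adjusted p = 0.0196). It passed as well with TMM (log2 fold change 0.71, edgeR adjusted p = 0.0197) and with the TRB total as library size (0.64, edgeR adjusted p = 0.0452), where the share of the V gene itself is part of the value. TRBV12-1 with TRBJ2-2 held 3.11% ± 0.425 and 4.29% ± 1.14 of TRBV12-1 counts (SD, n = 5 each; log2 fold change -0.45, edgeR adjusted p = 0.797). TRBV12-2 with TRBJ2-3 held 9.47% ± 1.42 of TRBV12-2 counts in CNS4KO and 11.1% ± 2.02 in CNS4Flox libraries (SD, n = 5 each; log2 fold change -0.22, edgeR adjusted p = 0.822), and TRBV12-2 with TRBJ1-2 had a log2 fold change of -0.25 (edgeR adjusted p = 0.886).

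**Figure D2:**
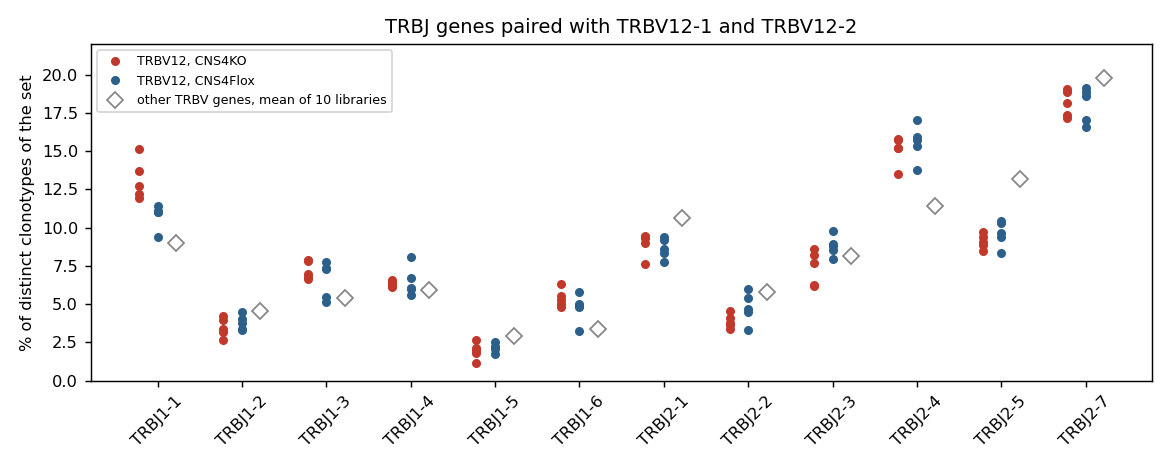
Share of distinct TRBV12 clonotypes (%) that used each of 12 TRBJ genes, by library, with the mean of the other 20 TRBV genes over 10 libraries as open diamonds. TRBJ1-1 lay between 11.9 and 15.1% in CNS4KO and between 9.40 and 11.4% in CNS4Flox; TRBJ2-7 was the most used J gene.

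Most J genes were paired with TRBV12 more or less often than with the other TRBV genes. TRBJ2-7, TRBJ2-4 and TRBJ1-1 were the most used J genes, with 18.1% ± 0.968, 15.3% ± 1.03 and 11.95% ± 1.603 of TRBV12 clonotypes (SD, n = 10 libraries). Above the other genes stood TRBJ2-4 with 15.3 against 11.4%, TRBJ1-1 with 11.95 against 8.99%, TRBJ1-6 with 5.08 against 3.39% and TRBJ1-3 with 6.91 against 5.38%. Below them stood TRBJ2-5 with 9.36 against 13.1%, TRBJ2-1 with 8.81 against 10.6%, TRBJ2-7 with 18.1 against 19.8% and TRBJ2-2 with 4.31 against 5.81%. TRBJ2-4 was higher and TRBJ2-5 lower in 10 of 10 libraries. TRBV12-2 and TRBV12-1 had the highest and the next highest TRBJ2-4 share of the 22 genes, and TRBV12-1 had the highest TRBJ1-1 share. TRBV12-1 used TRBJ2-7 in 20.0% and TRBV12-2 in 14.7% of clonotypes, the lowest TRBJ2-7 share of the 22 genes. In the sign-flip permutation test over 10 libraries 20 of 21 values, J shares and junction values together, differed between TRBV12 and the rest at an adjusted p under 0.05, the exception being TRBJ2-3 (8.09 against 8.11%). Such differences are common, since 68% of the comparisons of single TRBV genes with the rest passed the same test.

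TRBD1 was the D gene of most TRBV12 clonotypes. Of TRBV12 clonotypes with a TRBJ1 gene, 89.0% were assigned TRBD1, 7.51% TRBD2 and 3.52% no D gene (means over 10 libraries). With a TRBJ2 gene, 50.9% were assigned TRBD1 and 46.6% TRBD2. TRBD2 assigned beside a TRBJ1 gene goes against the order of the segments on chromosome 6 (TRBD1 from 41533201, TRBJ1-1 from 41533864, TRBD2 from 41542163). Among clonotypes with an assigned D gene, TRBD1 was held by 67.3% ± 0.841 in CNS4KO and 65.7% ± 1.23 in CNS4Flox libraries (SD, n = 5 each), which did not pass (exact permutation p = 0.0635, adjusted p = 0.0952). For TRBV12-1 alone, TRBD1 was held by 67.4 and 64.9%, with groups that did not overlap (exact permutation p = 0.00794, adjusted p = 0.0397 over the 15 values of this gene), and 9.09% of the 22 genes had an exact p under 0.05 in this direction. Within TRBJ1 clonotypes the TRBD1 share was 89.4% ± 1.31 and 88.6% ± 0.646, and within TRBJ2 clonotypes it was 50.9% ± 0.742 and 50.9% ± 1.01, in CNS4KO and CNS4Flox libraries (SD, n = 5 each).

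TRBV12 junctions of CNS4KO libraries held more bases between matches, counted here as inserted bases. The mean number per CDR3 was 4.33, 4.25, 4.37, 4.27 and 4.27 in CNS4KO replicates 1 to 5, against 4.10, 4.19, 4.14, 3.87 and 4.27 in CNS4Flox replicates 1 to 5. CNS4Flox replicate 5 reached the CNS4KO values and the other 4 CNS4Flox libraries were below all of them. The group means were 4.30 ± 0.0512 and 4.11 ± 0.149 bases (SD, n = 5 each; exact permutation p = 0.0238, adjusted p = 0.0446). An exact p under 0.05 in this direction was seen for 4.55% of the 22 TRBV genes, which was TRBV12-1, with 4.35 against 4.13 bases and groups that did not overlap (exact permutation p = 0.00794). TRBV12-2 had 4.21 against 4.08 bases (exact permutation p = 0.119), the next largest difference of the 22 genes. The adjusted p over 15 values was 0.0476 without CNS4Flox replicate 5 and between 0.0680 and 0.0893 without each other library. In the other TRBV genes the means were 3.80 ± 0.0677 and 3.80 ± 0.0136 bases (SD, n = 5 each). The difference of TRBV12 from the other genes was 0.496 bases in CNS4KO and 0.309 in CNS4Flox libraries, and this change missed the adjusted threshold (exact permutation p = 0.0317, adjusted p = 0.0952). Most TRBV12 clonotypes with a TRBJ1-6 end (919 of 937) were named TRBJ2-5. Bases of that J end can then count as inserted, as in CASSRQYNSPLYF with 15. TRBJ1-6 was used by 5.39% ± 0.587 of TRBV12 clonotypes in CNS4KO and 4.76% ± 0.923 in CNS4Flox libraries (SD, n = 5 each). The lowest share was 3.27% in CNS4Flox replicate 4. Within TRBJ2 clonotypes alone, which hold no TRBJ1-6 end, the difference in inserted bases was smaller and did not pass. Within TRBJ1 clonotypes it did not pass either. How far TRBJ1-6 ends enter the inserted bases was not tested.

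By class of insertion length, compared here without a test, the means differed in both directions. TRBV12 clonotypes with 10 or more inserted bases made up 6.58% ± 0.558 in CNS4KO and 5.42% ± 0.783 in CNS4Flox libraries (SD, n = 5 each, overlapping), those with 3 to 5 made up 45.9% ± 1.03 and 47.1% ± 1.002, and those with 1 to 2 made up 32.3% ± 1.25 and 33.1% ± 1.36. The longest class takes in clonotypes whose TRBJ1-6 end counts as inserted, such as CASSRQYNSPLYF with 15 bases and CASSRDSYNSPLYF with 18. It is therefore not a measure of bases that no segment encodes. Clonotypes without any inserted base were rare, with 0.492% ± 0.222 and 0.448% ± 0.172 (SD, n = 5 each; exact permutation p = 0.746). The V segment contributed 13.1 ± 0.0558 bases of the CDR3 in CNS4KO and 13.2 ± 0.0382 in CNS4Flox libraries (SD, n = 5 each; exact permutation p = 0.0317, adjusted p = 0.0529), and the direction had an exact p under 0.05 in 4.55% of V genes. CDR3 length was 13.7 ± 0.0354 and 13.7 ± 0.0405 residues (SD, n = 5 each; exact permutation p = 0.421), against 0% of V genes with an exact p under 0.05. Lengths of 13, 14 and 15 residues held 27.0, 33.7 and 18.1% of TRBV12 clonotypes, and 24.7, 30.3 and 19.3% of clonotypes of the other genes.

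TRBV12 CDR3s carried a less negative charge in CNS4KO libraries. The mean net charge, counting lysine and arginine as positive and aspartate and glutamate as negative, was -0.217, -0.192, -0.185, -0.168 and -0.273 in CNS4KO replicates 1 to 5, against -0.373, -0.335, -0.278, -0.264 and -0.261 in CNS4Flox replicates 1 to 5. CNS4KO replicate 5, which belongs to the pair that shared clonotypes, lay within the CNS4Flox range. The means were -0.207 ± 0.0407 and -0.302 ± 0.0497 (SD, n = 5 each; exact permutation p = 0.0238, adjusted p = 0.0446), and 9.09% of the 22 genes had an exact p under 0.05 in this direction. The adjusted p was 0.0476 without CNS4KO replicate 5 and between 0.0595 and 0.0893 without each other library, and the difference of 0.0952 became 0.118 without both libraries of the pair. The other TRBV genes had -0.618 ± 0.0183 and -0.595 ± 0.0120 (SD, n = 5 each). The difference of TRBV12 from the other genes was 0.411 in CNS4KO and 0.293 in CNS4Flox libraries, and this change passed (exact permutation p = 0.00794, adjusted p = 0.0417). With any library left out the adjusted p of this change was 0.0667 or 0.0833.

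**Figure D3:**
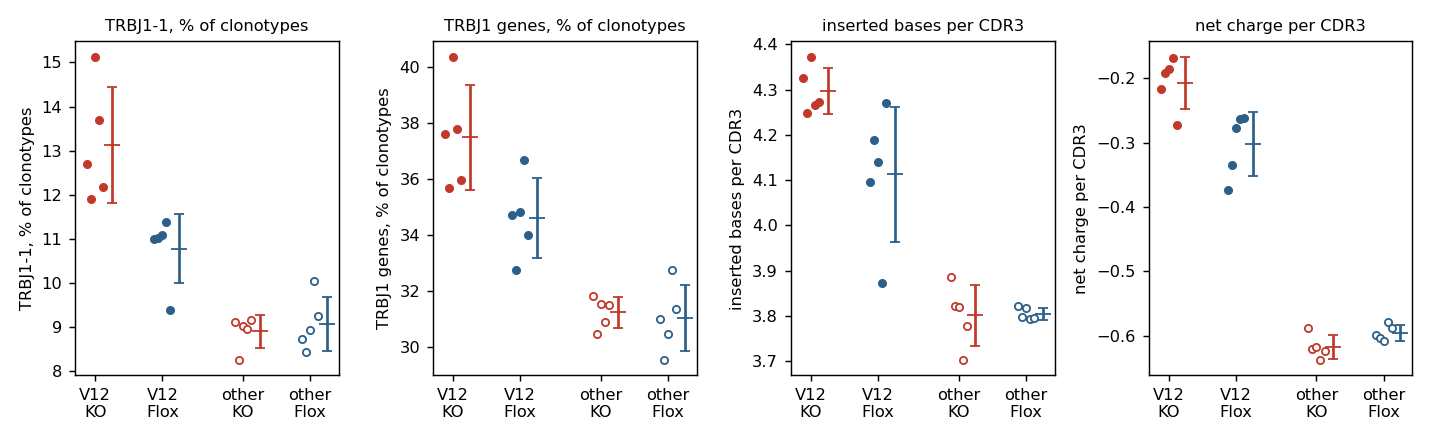
TRBJ1-1 share, TRBJ1 cluster share (both % of distinct clonotypes), inserted bases per CDR3 and net charge per CDR3 in TRBV12 clonotypes (filled) and in clonotypes of the other 20 TRBV genes (open), by library with mean ± SD. TRBV12 libraries of CNS4KO lie above most TRBV12 libraries of CNS4Flox in each panel, while the groups overlap in the other genes in each panel.

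The difference in charge was seen before the J match. Counted over residues before the J match, net charge was 0.324 to 0.412 in CNS4KO and 0.256 to 0.321 in CNS4Flox libraries, without overlap. From the J match on it was -0.589 ± 0.0148 and -0.592 ± 0.0321 (SD, n = 5 each). Basic residues numbered 0.735 ± 0.0350 and 0.662 ± 0.0233 per CDR3, and acidic residues 0.942 ± 0.0259 and 0.964 ± 0.0324. In the other TRBV genes net charge before the J match was 0.0660 ± 0.0137 and 0.0900 ± 0.00878, with overlapping groups. Their basic residues numbered 0.551 ± 0.00824 and 0.569 ± 0.00429, lower in CNS4KO and without overlap, so groups apart were also seen outside TRBV12. These parts were looked at after the net charge was known, were not taken for single TRBV genes and were not tested.

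Arginine at position 5 of the CDR3, counted from the cysteine as 1 and the place of the R in CASSR, was more frequent in TRBV12 than in the other TRBV genes. It was held by 24.3, 23.6, 24.6, 25.8 and 21.7% of TRBV12 clonotypes in CNS4KO replicates 1 to 5, against 19.4, 22.4, 22.3, 22.04 and 19.4% in CNS4Flox replicates 1 to 5. CNS4KO replicate 5 overlapped the CNS4Flox libraries. In the other TRBV genes this arginine was held by 9.40 to 10.03% in CNS4KO and 9.63 to 10.5% in CNS4Flox libraries. It was chosen after the charge values were seen and was not tested. TRBJ1-1 was used by 12.4% ± 0.940 and 10.1% ± 0.616 of TRBV12 clonotypes without this arginine (SD, n = 5 each, not overlapping). Among TRBV12 clonotypes with this arginine it was used by 15.4% ± 2.69 and 13.3% ± 2.06, with overlapping groups. Without the arginine, TRBV12-1 had 13.9% ± 1.36 and 11.1% ± 0.667, not overlapping, and TRBV12-2 had 9.87% ± 1.13 and 8.49% ± 1.31, overlapping.

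The share of TRBV12 clonotypes with a cysteine within the CDR3 was lower in CNS4KO libraries. A cysteine after the starting residue was held by 0.279, 0.0681, 0.226, 0.173 and 0.172% of TRBV12 clonotypes in CNS4KO replicates 1 to 5, against 0.408, 0.317, 0.285, 0.262 and 0.287% in CNS4Flox replicates 1 to 5. Only CNS4KO replicate 1 overlapped the CNS4Flox libraries (exact permutation p = 0.0159, adjusted p = 0.0446). Each share rests on a few clonotypes, out of 1469 to 2322 in CNS4KO and 1394 to 2205 in CNS4Flox libraries. Of the 22 TRBV genes tested singly, 0% passed an exact p of 0.05 in this direction. The exact permutation p was 0.325 for TRBV12-1 and 0.175 for TRBV12-2. In the other TRBV genes the share was 6.53% ± 0.706 and 6.49% ± 0.324 (SD, n = 5 each), most of it from TRBV1, where 99.6% of clonotypes held such a cysteine. By gene, TRBV12-2 with 0.255% and TRBV12-1 with 0.242% ranked 5 and 6 of the 22 genes from the highest, above 16 genes at 0.0301 to 0.134%. The adjusted p was 0.0476 without CNS4KO replicate 1 or CNS4Flox replicate 4 and between 0.0680 and 0.0893 without each other library. Hydrophobic residues at both positions 6 and 7, a feature known to favour self-reactivity, were held by 2.56% ± 0.217 and 2.61% ± 0.354 of TRBV12 clonotypes (SD, n = 5 each; exact permutation p = 0.770), and 9.09% of V genes passed in the same direction.

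Set against the other TRBV genes within each library, TRBV12 junctions held more inserted bases (4.21 against 3.80, higher in 10 of 10 libraries), fewer V bases (13.2 against 13.6, lower in 10 of 10) and a less negative charge (-0.255 against -0.607). TRBJ1 genes were used by 36.0 against 31.1%, in 10 of 10 libraries. Each of these had an adjusted p of 0.00342 in the sign-flip permutation test over 10 libraries, whose smallest p is 0.00195. Of the comparisons of single TRBV genes with the rest, 68% passed the same test. From the highest of 22 genes, TRBV12-1 and TRBV12-2 ranked 2 and 3 for inserted bases. They ranked 4 and 5 for net charge and 4 and 3 for TRBJ1 share. For V bases they ranked 16 and 13, and TRBV14 kept fewer (12.9). The inserted bases can include bases of TRBJ1-6 ends, which were held by 5.08% of TRBV12 clonotypes and 3.39% of the others.

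The genes differed from each other as well. TRBV12-1 CDR3s were shorter than those of TRBV12-2, with 13.6 ± 0.0568 against 13.8 ± 0.0502 residues, in 10 of 10 libraries (SD, n = 10; sign-flip permutation adjusted p = 0.00439 over 9 values). They held slightly more inserted bases (4.24 against 4.15, in 9 of 10 libraries), fewer V bases (13.1 against 13.2), more hydrophobic doublets (2.96 against 1.94%) and a less negative charge (-0.217 against -0.320). These 5 of 9 values passed, whereas the TRBD1 share, the TRBJ1 share, the cysteine share and the share without inserted bases did not. No interaction with genotype passed for these 9 values (lowest adjusted p = 0.143 for V bases, exact permutation test). Ranked by the difference between groups, TRBV12-1 came highest of 22 V genes for inserted bases (0.216), TRBJ1 share (3.63 percentage points) and net charge (0.109), and TRBV12-2 ranked 2, 5 and 3. TRBJ1-6, whose own bases can count as inserted, was used by 5.36% of TRBV12-1 and 4.57% of TRBV12-2 clonotypes.

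**Figure D4:**
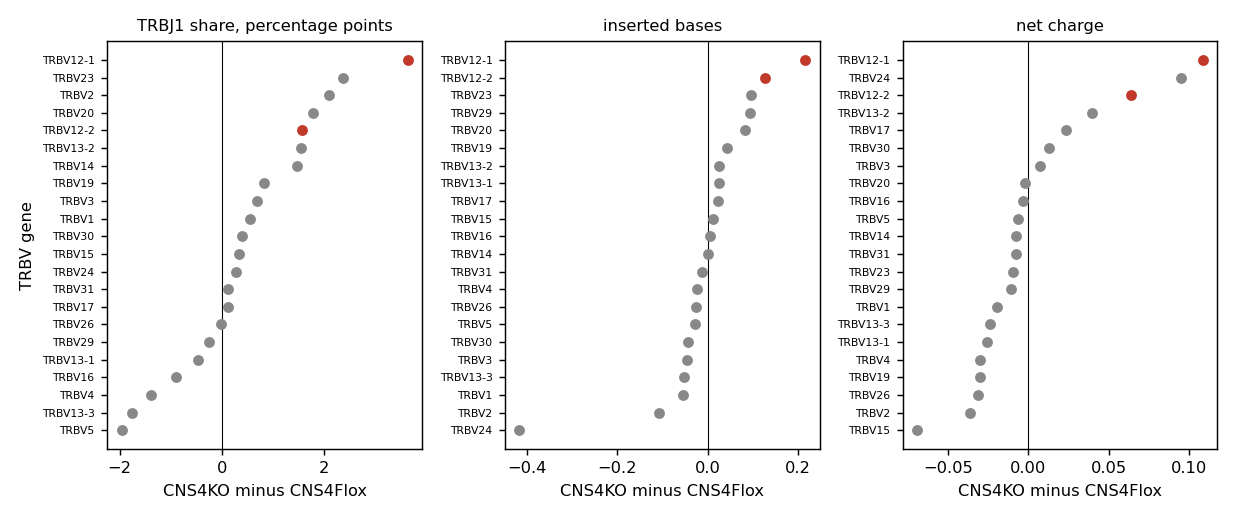
CNS4KO mean minus CNS4Flox mean for each of 22 TRBV genes in TRBJ1 share (percentage points), inserted bases (bases) and net charge (charges per CDR3), sorted by size, with TRBV12-1 and TRBV12-2 in red. TRBV12-1 stands at the top of each panel with 3.63, 0.216 and 0.109.

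Clone sizes of TRBV12 receptors were less even in CNS4KO libraries, as in other V genes. After each library was thinned to 1647 TRBV12 counts, 1174, 1296, 1263, 1360 and 1369 distinct TRBV12 clonotypes were left in CNS4KO replicates 1 to 5, against 1448, 1437, 1422, 1399 and 1394 in CNS4Flox replicates 1 to 5. The groups did not overlap, with means of 1292 ± 79.5 and 1420 ± 23.5 (SD, n = 5 each; exact permutation p = 0.00794, adjusted p = 0.0397). Richness fell with an exact p under 0.05 in 100% of 22 TRBV genes, and its groups did not overlap in 72.7% of them. Shannon entropy was 7.04 ± 0.0974 and 7.19 ± 0.0229 nats (SD, n = 5 each; exact permutation adjusted p = 0.0397, 95.5% of V genes), without overlap here and in 63.6% of V genes. The 10 most abundant clonotypes held 5.50, 4.99, 6.49, 3.49 and 3.82% of TRBV12 counts in CNS4KO replicates 1 to 5, against 2.45, 2.87, 3.35, 2.94 and 2.25% in CNS4Flox replicates 1 to 5, again without overlap (exact permutation adjusted p = 0.0397, 86.4% of V genes, and without overlap in 45.5% of them). Clonotypes with a count of 1 made up 81.4% ± 4.10 and 87.2% ± 1.51 of TRBV12 clonotypes (SD, n = 5 each; exact permutation p = 0.0159, adjusted p = 0.0446, 100% of V genes).

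These size values passed an adjusted p of 0.05 without CNS4KO replicate 5 or CNS4Flox replicate 5, and, apart from the share with a count of 1, also without CNS4KO replicate 1 or CNS4Flox replicate 4 (exact permutation adjusted p = 0.0476). Without each other library the adjusted p was between 0.0595 and 0.0893. The mean count per clonotype, before thinning, was 1.44 ± 0.153 and 1.20 ± 0.0393 in TRBV12 (SD, n = 5 each), and 1.54 ± 0.143 and 1.24 ± 0.0747 in the other TRBV genes. Clonotypes with a count of 5 or more held 15.8, 5.18, 8.82, 6.62 and 6.41% of TRBV12 counts in CNS4KO replicates 1 to 5, against 0.298, 2.51, 3.54, 1.86 and 0% in CNS4Flox replicates 1 to 5.

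**Figure D5:**
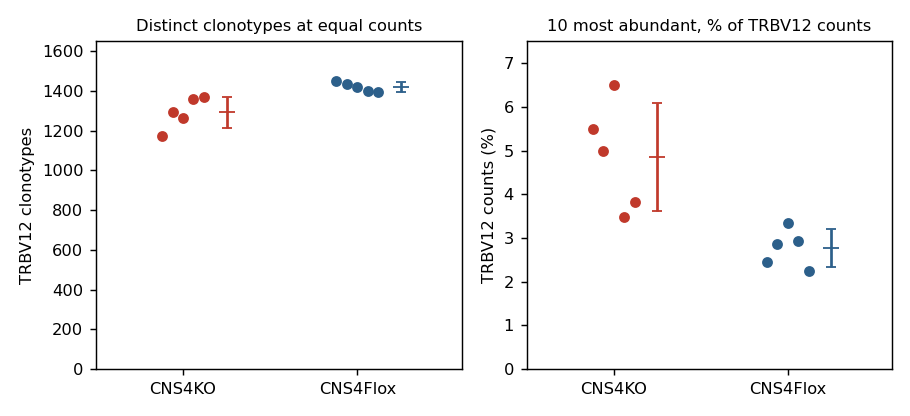
Distinct TRBV12 clonotypes after thinning each library to 1647 TRBV12 counts (left) and share of TRBV12 counts (%) held by the 10 most abundant clonotypes (right), by library with mean ± SD. CNS4KO libraries held 1174 to 1369 clonotypes and CNS4Flox libraries 1394 to 1448.

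The most abundant TRBV12 clonotype of each library was a different sequence in all 10 libraries, and none of them occurred in a second library as the same nucleotides. Their counts were 32, 16, 65, 14 and 23 in CNS4KO replicates 1 to 5, against 5, 14, 17, 13 and 4 in CNS4Flox replicates 1 to 5. The groups overlapped. The 16-residue clonotype of CNS4KO replicate 3 printed above, with TRBV12-1 and TRBJ1-4, was the largest with 65 counts, or 0.258% of the TRB counts of its library (95% Wilson interval 0.203 to 0.329%). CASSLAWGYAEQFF, with TRBV12-1 and TRBJ2-1, led CNS4KO replicate 1 with 32 counts. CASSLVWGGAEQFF, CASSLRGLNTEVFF and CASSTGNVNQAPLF, all with TRBV12-2, led CNS4KO replicates 2, 4 and 5. In CNS4Flox the largest was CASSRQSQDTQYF with TRBV12-1 and TRBJ2-5 in replicate 3, with 17 counts or 0.0515% of TRB counts (95% Wilson interval 0.0322 to 0.0825%). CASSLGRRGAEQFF, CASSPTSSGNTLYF, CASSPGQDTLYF and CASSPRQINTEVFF, all with TRBV12-1, led CNS4Flox replicates 1, 2, 4 and 5, the last of them tied with 6 others at 4 counts.

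Most TRBV12 receptors were found in a single library, as were most receptors of the other TRBV genes. Of 15001 amino acid clonotypes, defined by V gene and CDR3 residues, 13148 (87.6%) were found in a single library and 103 (0.687%) in 5 or more. Of 148818 clonotypes of the other TRBV genes, 89.5% were found in a single library and 581 (0.390%) in 5 or more. These shares depend on depth, and TRBV12 clonotypes averaged 1.44 counts in CNS4KO and 1.20 in CNS4Flox libraries. No TRBV12 clonotype was found in all 10 libraries, and the most widely shared were found in 9. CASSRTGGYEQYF had 13 nucleotide forms, the most of any TRBV12 clonotype, and counts of 1, 7, 1, 7 and 6 in CNS4KO replicates 1 to 5, against 1, 2, 1, 2 and 0 in CNS4Flox replicates 1 to 5. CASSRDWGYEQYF had counts of 8, 2, 2, 8 and 1 in CNS4KO replicates 1 to 5, against 2, 2, 0, 1 and 2 in CNS4Flox replicates 1 to 5. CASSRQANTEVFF was found in 4 CNS4KO and 4 CNS4Flox libraries. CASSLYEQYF, whose commonest nucleotide form shows no inserted base and no assigned D gene, was found in 4 CNS4KO and 3 CNS4Flox libraries. The 15-residue shared clonotype, with TRBJ2-7, was found in 2 CNS4KO and 5 CNS4Flox libraries, and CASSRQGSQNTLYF in 3 CNS4KO and 4 CNS4Flox libraries.

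Sharing went along with short insertions and with arginine at position 5. Over clonotypes found in 1 library, in 2, in 3 to 4 and in 5 to 10 libraries, the mean number of inserted bases was 4.66, 3.41, 2.74 and 2.56. Over the same classes arginine at position 5 was held by 18.9, 26.1, 32.8 and 45.6%. The number of nucleotide forms per clonotype was 1.01, 1.89, 3.12 and 5.36. These are descriptions of clonotypes pooled over libraries and carry no test.

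No difference between groups in sharing passed the test. At equal counts 21.3, 22.6, 23.2, 23.6 and 25.8% of TRBV12 amino acid clonotypes of CNS4KO replicates 1 to 5 were found in at least 1 other library, against 21.01, 21.9, 23.4, 23.2 and 21.3% for CNS4Flox replicates 1 to 5. CNS4KO replicate 5 and CNS4Flox replicate 3, the pair that shared the most nucleotide clonotypes, had the highest shares of their groups. The difference of 1.13 percentage points did not pass (exact permutation p = 0.254, 4.55% of V genes). The mean Jaccard index was 0.0232 within CNS4KO, 0.0213 within CNS4Flox and 0.0227 between groups (within CNS4KO minus within CNS4Flox 0.00194, exact permutation p = 0.452, 0% of V genes). With each gene thinned to its own smallest total, 24.4% of TRBV12-1 clonotypes (960 counts) and 17.7% of TRBV12-2 clonotypes (547 counts) were found in at least 1 other library, and no order is read from these shares because the depths differ.

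No single TRBV12 clonotype passed a test between groups. In edgeR's quasi-likelihood test 0% of 684 amino acid clonotypes detected in at least 5 libraries passed an adjusted p of 0.05, and 5.7% had an unadjusted p under 0.05. Of the 103 TRBV12 clonotypes, 0 passed in edgeR and in DESeq2 and 6 had an unadjusted p under 0.05 in each. Of these 103, 68 had a higher and 35 a lower fitted level in CNS4KO, with a median log2 fold change of 0.51 against 0.00 over all clonotypes tested. These levels are per total TRB count, so the share of TRBV12 in each library, known when the genes were chosen, is part of them. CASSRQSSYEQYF, named after its values were seen, had TRBV12-1 counts of 3, 2, 3, 4 and 1 in CNS4KO replicates 1 to 5, against 0 in each CNS4Flox library (edgeR adjusted p = 0.285). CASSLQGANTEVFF and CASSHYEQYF, chosen in the same way, were also found as TRBV12-1 clonotypes in all 5 CNS4KO libraries and listed as such in no CNS4Flox library, with counts of 1 to 3. Under the TRBV12-2 name, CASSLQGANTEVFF was found in 3 CNS4KO and 3 CNS4Flox libraries, and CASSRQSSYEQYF in 0 CNS4KO libraries and 1 CNS4Flox library with 1 count. With the V gene as part of the clonotype, no TRBV12 clonotype was found in all 5 CNS4Flox and no CNS4KO library. Clonotypes in at least 3 CNS4KO and no CNS4Flox library numbered 39, against 20 in at least 3 CNS4Flox and no CNS4KO library, and at equal counts the means over 20 draws were 21.9 and 15.7. These numbers were not taken for the other TRBV genes, so no result particular to TRBV12 is read from them.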

How the data were processed

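Each deposited table lists the clonotypes of a single library with a whole-number count and a fraction, which is the deposited count over the library total of both chains, per the file headers. The cDNA was primed in the alpha and beta chains, extended by template switching and amplified by PCR, per the labels' protocols, and mm10 is named as the build, per the submitters' processing notes. Not given in the sources used here are the aligner, the clonotype caller, the number of cells and whether counts are reads or molecules. The V, D and J names and the positions where the V, D and J matches end or start were used as deposited, per the file headers.

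Entries under beta names with no beta J end were left out, since they may be alpha chains. The J gene was taken from the CDR3 end where it names a single gene, with TRBJ1-6 set apart (937 TRBV12 clonotypes, of which 919 were named TRBJ2-5), and elsewhere from the J name, which matched the end in 99.9% of TRBV12 entries when the name TRBJ2-5 is taken as the match of the TRBJ1-6 end. Inserted bases are the bases between matches. They can include bases of a TRBJ1-6 end where the entry was named TRBJ2-5. Junction and J values count each distinct clonotype once. Sizes and sharing were compared after thinning to 1647 counts, over 20 draws.

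Single values were compared by two-sided exact permutation over the 252 assignments of 5 and 5 libraries (smallest p 0.00794), with Benjamini-Hochberg adjustment over 15 values. TRBV12 was set against the other 20 TRBV genes, and TRBV12-1 against TRBV12-2, by two-sided sign flips over 10 libraries. V-J pairs with at least 10 counts in at least 5 libraries, with the V gene total as library size, and amino acid clonotypes in at least 5 libraries, with the TRB total, were tested with edgeR's quasi-likelihood test over the whole table, and DESeq2 was an alternative. The same tests on each of 22 TRBV genes gave the background shares. Other alternatives were weighting by count, leaving out counts of 1, other thinning and clonotype definitions, each V gene alone, a J name match, a carry-over filter, TMM, other library sizes and filters, and leaving out libraries. Restriction to either J cluster and leaving out clonotypes 1 base from a more abundant clonotype were added after seeing the data. All procedures were tested on simulated data.

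The members, lists and tests were chosen with earlier results of these data known. Named J genes are the 3 most used, the 2 pairs with the smallest p per V gene, and up to 4 per direction with the largest difference from the other genes. Named clonotypes are the 6 found in the most libraries (ties by mean share), the most abundant of each library and that with the most nucleotide forms. TRBJ2-3 is also named for its change between groups. Count models were run with edgeR 4.0.16 and DESeq2 1.42.0 under R 4.3.3, all else with scipy 1.17.1, pandas 2.3.3 and numpy 2.4.6 under Python 3.11.15, and figures were drawn with matplotlib 3.10.9. Gene positions came from RefSeq.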

Additional observations from a re-analysis of the deposited data

Results flagged for a closer look

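Of 36 groups of 5 library values examined with Dixon's criterion, which flags about 1 in 20 groups by chance, 2 held a library far from the others. The hydrophobic doublet share was 2.94% in CNS4KO replicate 3, above the other CNS4KO libraries, and TRBV12-1 held 4.54% of distinct TRB clonotypes in CNS4Flox replicate 5, below the other CNS4Flox libraries.

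In 4 values the difference of TRBV12 from the other TRBV genes itself differed between CNS4KO and CNS4Flox (exact permutation p = 0.00794 and adjusted p = 0.0417 for each). The difference was larger in CNS4KO by 2.67 percentage points for the TRBJ1 share, by 2.52 percentage points for TRBJ1-1 and by 0.118 charges for net charge, and it changed by -1.44 percentage points for TRBJ2-3. The TRBJ1 share includes TRBJ1-1, so these values are not independent. Weighted by count, the adjusted p was 0.267 for the TRBJ1 share, 0.472 for TRBJ1-1, and 0.167 for both net charge and TRBJ2-3 (exact permutation tests over 21 values).

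Entries under TRBV12 names but without a beta J end, which the comparisons do not use, held 113568 of the 137891 counts under these names (82.4%). They were 80.8% ± 3.59 of such counts in CNS4KO and 84.0% ± 3.92 in CNS4Flox libraries (SD, n = 5 each).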

How the results depend on the processing

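All differences are CNS4KO minus CNS4Flox, and the cause of each change was not tested. Requiring a matching J name, the carry-over filter, leaving out clonotypes 1 base from a more abundant one, deeper thinning, the other clonotype definition, DESeq2 and the other filters on low counts kept the direction and the side of the threshold of every result they were run on. No paired analysis was possible because the labels carry no replicate numbers that the groups share.

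With each library left out in turn, the adjusted p crossed 0.05 for most libraries in 8 values. Their ranges were 0.124 to 0.223 for inserted bases, 2.17 to 3.41 percentage points for the TRBJ1 share, -0.152 to -0.0991 points for cysteine, 0.0774 to 0.112 for net charge, -146.8 to -98.1 clonotypes for richness, -0.180 to -0.124 nats for entropy, 1.603 to 2.35 points for the 10 most abundant and -7.04 to -4.40 points for counts of 1. V bases (-0.105 to -0.0689) passed without CNS4KO replicate 1. The share without inserted bases (-0.0480 to 0.0914 points) and the doublet share (-0.145 to 0.0482 points), which did not pass, changed sign. The count of values that differed between TRBV12-1 and TRBV12-2 was 4 to 6.

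Without both libraries of the pair, where 4 against 4 allow no exact p below 0.0286, none of the 15 values passed after adjustment. The differences were 0.197 for inserted bases, 3.33 for the TRBJ1 share, -0.132 for cysteine, 0.118 for net charge, -146.3 for richness, -0.182 for entropy, 2.43 for the 10 most abundant and -6.77 for counts of 1, and the sign turned for the share without inserted bases (-0.00539) and the doublet share (0.0635).

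Weighted by count, 4 values no longer passed, with 0.160 for inserted bases, 3.46 for the TRBJ1 share, -0.129 for cysteine and 0.102 for net charge. The doublet share turned to 0.140, and 3 values differed between TRBV12-1 and TRBV12-2. With counts of 1 left out, the differences were 0.136, 3.402, -0.193 and 0.0914 in the same order and 1.22 for the 10 most abundant. The sign turned for richness (55.3), entropy (0.183), the doublet share (0.420) and the share found elsewhere (-0.207), and 3 values differed between the genes. At full depth richness (191.2) and entropy (0.0115) turned, in libraries that differ in TRBV12 counts, and the 10 most abundant (1.91) and counts of 1 (-11.9) did not pass.

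For TRBV12-1 alone the TRBD1 share passed (2.45), whereas cysteine (-0.0824), richness (-64.5), the 10 most abundant (2.27) and counts of 1 (-5.14) did not. For TRBV12-2 alone inserted bases (0.127), the TRBJ1 share (1.56), cysteine (-0.191) and net charge (0.0641) did not pass, and the share without inserted bases (-0.0651) and the doublet share (0.0925) turned. Within TRBJ1 clonotypes inserted bases (0.183), net charge (0.0871) and cysteine (-0.185) did not pass, nor within TRBJ2 clonotypes (0.102, 0.0819 and -0.0909). Distinct clonotypes, TMM and the TRB total as library size each called 1 TRBV12 pair, TRBV12-1 with TRBJ1-1, where counts over the V gene total called 0. With TMM the log2 fold change turned for TRBV12-2 with TRBJ2-3 (0.055) and with TRBJ1-2 (0.037).

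Depth is a limit of the clonotype tests: TRBV12 clonotypes averaged 1.44 counts in CNS4KO and 1.20 in CNS4Flox libraries before thinning.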
